A study of Mus musculus with 12 samples.

Results

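The genes described here encode the dynein arms of motile cilia and the factors that build and anchor them, measured in mouse choroid plexus at 4 ages. They were taken from the expression matrix by symbol: every axonemal heavy chain gene (Dnah), the intermediate chains Dnaic1 and Dnaic2, the light chains Dnal1, Dnal4 and Dnali1, the numbered assembly factors (Dnaaf), and 12 further symbols known for arm assembly or attachment. The rule found 37 of 52459 gene symbols and used no measured value. By role these were 5 outer-arm heavy chains, 10 inner-arm heavy chains, 7 intermediate and light chains, 7 docking and attachment genes, 7 assembly factors and 1 antisense transcript, Dnah2os, which matched by its name. Choroid plexus, the epithelium with stroma that secretes cerebrospinal fluid, was dissected from B6 mice and sequenced in 3 libraries at each of 4 ages, embryonic (E12.5), newborn (P0), juvenile (P14) and adult at 6 months (A6m). All groups were unmanipulated animals as far as the labels say, and total RNA was extracted with Trizol and made into mRNA libraries. The labels describe independent specimens without sex, pooling or ventricle, so p-values measure only the spread between these samples. Choroid plexus of mutant animals was not analysed here. Levels are in TPM, transcript abundances relative to the whole library, listed for replicates 1, 2 and 3 in that order, and errors on TPM are SDs over 3 libraries.

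A motile cilium bends because dynein motors fixed to one microtubule doublet walk along the next. Outer arms drive the beat and in mammals carry a pair of heavy chains, one of the Dnah5 or Dnah8 kind and one of the Dnah9, Dnah11 or Dnah17 kind, while several kinds of inner arm with other heavy chains shape the waveform. The arms are put together in the cytoplasm by assembly factors acting with chaperones, are carried into the cilium and dock at fixed intervals along the doublets. Choroid plexus epithelial cells carry tufts of cilia, and Foxj1 is the forkhead transcription factor that switches on motile cilium genes.

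The gene with the widest change among the heavy chains, Dnah7a, has near-identical copies, and the sequences show how little separates them. Dnah7a lies at chr1:53397006-53706784 on the minus strand, Dnah7b at chr1:46066315-46373546 and Dnah7c at chr1:46425592-46807476 on the plus strand (GENCODE M21, GRCm38). Their coding sequences, aligned over 12075 bases, were identical at 97.0% of positions for Dnah7a and Dnah7b, 96.8% for Dnah7a and Dnah7c and 97.3% for Dnah7b and Dnah7c. The lines below give the same 60 coding bases of each gene, 5′ to 3′ in the sense of the transcript, with the 5 positions at which the copies differ in capitals. They start at coding base 1 of Dnah7a and Dnah7c and at coding base 133 of Dnah7b.
Dnah7a: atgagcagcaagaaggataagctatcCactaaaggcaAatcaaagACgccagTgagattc
Dnah7b: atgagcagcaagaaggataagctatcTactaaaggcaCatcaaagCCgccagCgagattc
Dnah7c: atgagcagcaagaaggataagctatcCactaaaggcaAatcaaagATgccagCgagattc
Of the 31-base words in the transcripts of Dnah7a, 54.2% also occurred in transcripts of other genes, against 40.1% for Dnah7b and 61.6% for Dnah7c, so reads from shared stretches had to be divided between the copies by the authors' quantification, and single values of these genes are uncertain.

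The scale of the values bears on every fall reported below. Ttr, the transthyretin gene of the epithelium, took 1.12% to 2.10% of all TPM at E12.5 and 14.1% to 16.9% at P0 and P14, and TPM sums to a fixed total. The median of all 17422 tested genes shifted by -0.27 at P0 against E12.5, -0.41 at P14 against P0, -0.04 at A6m against P14 and -0.71 at A6m against E12.5 on the log2 scale. Median-of-ratios scaling, which sets the typical gene to no change, brought these shifts to between -0.02 and 0.00, and calls that need the deposited scale are named as such. E12.5 replicate 1 stood apart, with 9.31% of its TPM in the feature Mir6236 against at most 2.05% elsewhere, and it was the lowest E12.5 library for 27 of the 37 genes. Xist was at 139, 0.389 and 89.5 TPM at E12.5, 0.430 to 0.689 at P0, 0.515 to 0.808 at P14 and 148 to 155 at A6m, and the Y-linked Ddx3y at 9.26, 54.4 and 50.9, 108 to 117, 80.1 to 93.2 and 0.122 to 0.366. Age and this difference cannot be told apart in the comparisons with A6m, and the E12.5 libraries differed in it among themselves. All 8 choroid plexus epithelium markers were above 0 in every library. Their sum, 12770 to 23679 TPM at E12.5 and 171501 to 177805 at A6m, was mostly Ttr and Enpp2. At A6m against E12.5 5 of the 8 were higher as deposited (15.2% of all genes) and 8 after rescaling (35.4%). The deposited means of Otx2 (463 and 401 TPM at E12.5 and A6m) and Aqp1 (189 and 176) were lower at A6m.

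Dynein arm transcripts were most abundant in the embryo. The summed level of the 36 genes other than Dnah2os was 1055, 1259 and 1589 TPM in the E12.5 libraries. It was 642 to 707 at P0, 396 to 447 at P14 and 416 to 472 at A6m. All E12.5 libraries lay above all later ones, and the P14 and A6m ranges overlapped. The mean was highest at E12.5 for 35 of the 37 genes, against 60.7% of all tested genes; the others were Dnah14, highest at P14, and Dnah2os, highest at P0. It was lowest at P14 for 19 genes, at A6m for 15 and at P0 for 2 (Dnah14 and Dnaic1), and for Dnah2os at E12.5. The mean fell at each of the 3 steps for 15 genes (35% of all tested genes), and 6 genes kept under 10% of their E12.5 mean at A6m (11.7% of all).

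Tested with limma on log2(TPM + 1) and called at a Benjamini-Hochberg adjusted p under 0.05 over all genes, 27 of 37 genes were lower at P0 than at E12.5 (43.7% of all tested genes were) and 1, Dnah2os, was higher (18.6% were). Between P0 and P14, 30 were lower (background 53.5%) and 1, Dnah14, was higher (5.33%). Between P14 and A6m, 6 were higher (8.78%) and 2 were lower (12.1%). Over the whole span from E12.5 to A6m, 34 were lower (62%) and Dnah2os was higher (15.2%). The F-test over the ages called 37 of 37, against 85.1% of all genes. This count includes the 4 genes named next, for which it is a description only. All 37 passed the filter of at least 1 TPM in at least 3 of 12 libraries, but Dnah5, Dnah8, Dnah17 and Dnah10 passed it only through the E12.5 libraries. Without these 4, the lower calls were 24, 29, 2 and 30 of 33 in the same order of comparisons. Dnah14 reached 1 TPM only in the P14 libraries and E12.5 replicate 1. Its higher call at P14 and its F-test call thus rest on the age that let it pass the filter.

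Both on the deposited and on the rescaled values, 24 genes were lower at P0 than at E12.5 (background 31%), 12 at P14 than at P0 (19.8%), 2 at A6m than at P14 (11.3%) and 22 at A6m than at E12.5 (35.8%). Without the 4 genes that passed the filter only through the E12.5 libraries, the lower calls on both scales were 21, 12, 2 and 19 of 33. Of all 37 genes, 1, 1, 6 and 1 were higher on both scales (background 18.5%, 5.32%, 8.78% and 15.2%). On rescaled values alone the higher calls were 1, 3, 9 and 2 (background 29%, 22.7%, 15.2% and 35.4%) and the lower calls 24, 12, 2 and 22 (31%, 19.8%, 14% and 35.8%). The median of the 37 log2 differences was -0.99, -0.71, 0.03 and -1.32 as deposited and -0.71, -0.27, 0.07 and -0.74 rescaled. The libraries of P0 lay wholly below those of E12.5 for 28 genes (43.5% of all genes) and wholly above for 1 (19.2%). For P14 against P0 these were 32 (62.1%) and 1 (7.16%), for A6m against P14 4 (25.9%) and 10 (18.4%), and for A6m against E12.5 34 (61.5%) and 0 (15.5%). In bulk tissue, fewer cells of a type and less RNA per cell cannot be told apart.

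**Figure D1:**
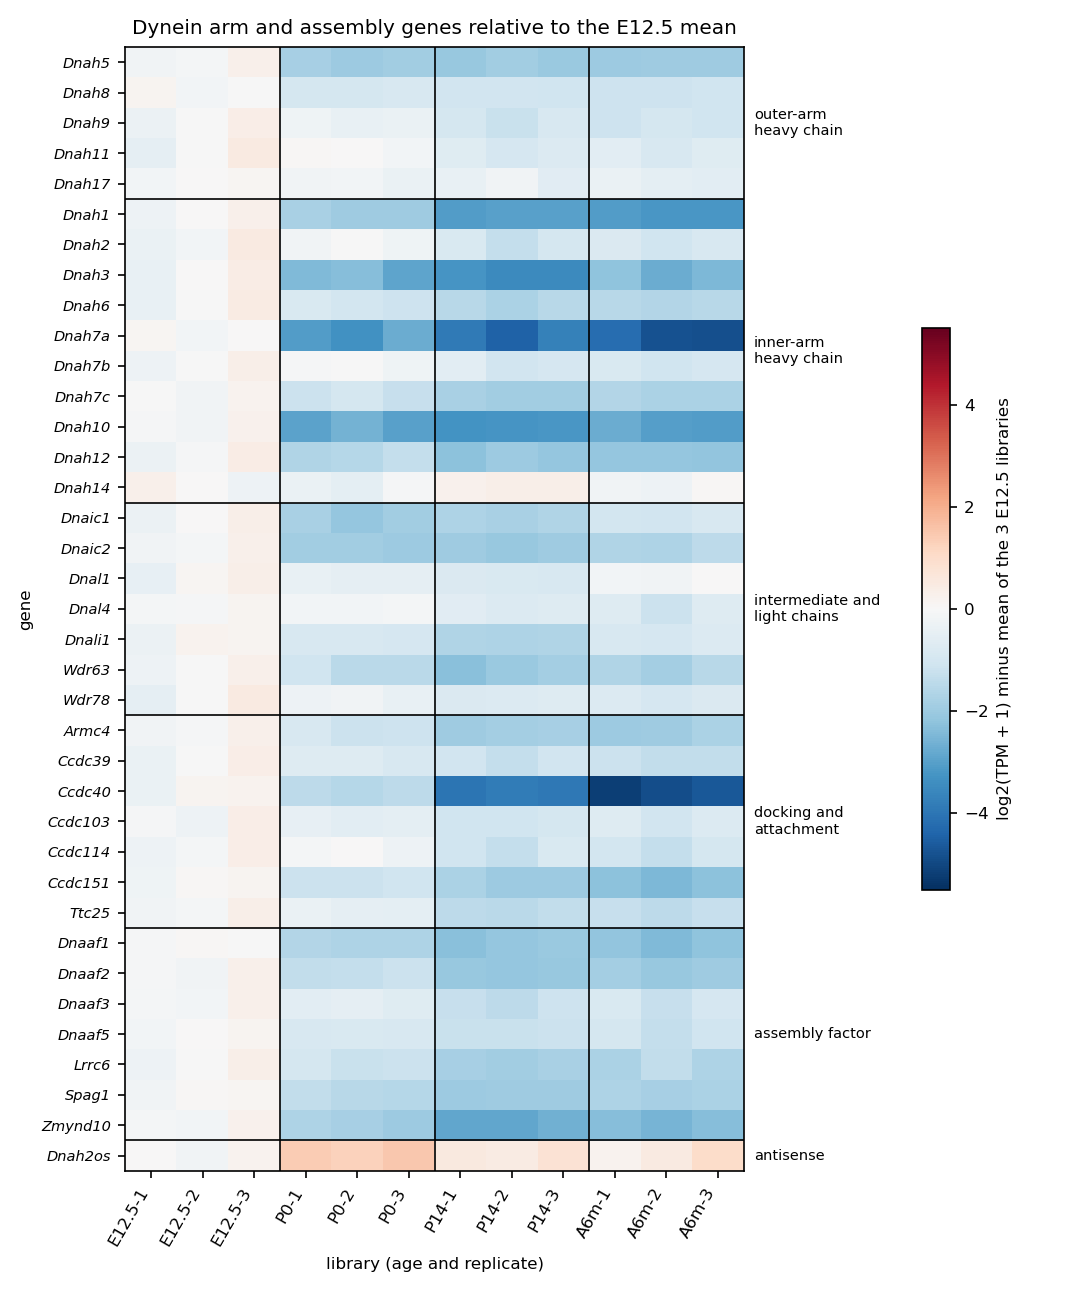
Heat map of the 37 genes (rows, grouped by role) in the 12 libraries (columns, by age and replicate). Colour gives log2(TPM + 1) minus the mean of the 3 E12.5 libraries; blue is lower, red is higher. Ccdc40 and Dnah7a are the darkest rows at A6m, Dnah2os is the red row after E12.5, and Dnaic1 and Dnal1 are paler at A6m than at P14.

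Outer-arm heavy chains were led at every age by Dnah9 and Dnah11, and Dnah5 and Dnah8 were under 0.5 TPM in every library after E12.5. Dnah9 and Dnah11 encode outer-arm heavy chains of one kind. Dnah9 was at 22.4, 27.97 and 37.3 TPM at E12.5, 23.8, 21.4 and 21.7 at P0, 14.2, 11.7 and 15.3 at P14 and 12.3, 13.96 and 12.8 at A6m. The P0 libraries overlapped the lower end of the E12.5 range, and the P14 and A6m libraries lay below both. Its difference from P0 to P14 was -0.67 ± 0.16 (SE) on the log2(TPM + 1) scale (limma adjusted p = 0.00412) and from E12.5 to A6m -1.08 ± 0.16 (SE) (adjusted p = 6.76e-05), 2.25-fold in mean TPM. On rescaled values neither was called (-0.18, limma adjusted p = 0.248, and -0.27, adjusted p = 0.0625). Dnah11 was at 15.6, 21.6 and 31.8 TPM at E12.5, 23.2, 22.3 and 20.1 at P0, 13.7, 11.001 and 12.9 at P14 and 14.4, 11.4 and 13.4 at A6m. The E12.5 and P0 libraries overlapped and all P14 and A6m libraries were lower, with A6m replicate 1 closest to E12.5 replicate 1. Its difference from E12.5 to A6m, -0.72 ± 0.20 (SE) (limma adjusted p = 0.00696), became 0.09 after rescaling (adjusted p = 0.582), a change of sign.

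Dnah5 encodes the other heavy chain of the outer arm in airway and ependymal cilia, and it had the largest fold change of the 5. It was at 3.50, 3.83 and 5.36 TPM at E12.5, 0.445, 0.281 and 0.386 at P0, 0.227, 0.375 and 0.275 at P14 and 0.283, 0.317 and 0.345 at A6m. Every E12.5 library was above 3 TPM and every later library below 1, where the ages overlapped. The mean at E12.5 was 11.4-fold that at P0 and 13.4-fold that at A6m. Dnah5, Dnah8 and Dnah17 passed the filter only through the E12.5 libraries, so their differences from E12.5 are given as descriptions, with no test. From P0 to P14 the difference of Dnah5 was -0.08 (limma adjusted p = 0.631). Dnah8, its relative known from sperm, went from 1.53 ± 0.253 to 0.155 ± 0.0240 TPM. Dnah17, also known from sperm, was under 1.5 TPM in every library and went from 1.23 ± 0.202 to 0.582 ± 0.141 TPM. Neither Dnah5 nor Dnah8 reached 0.5 TPM after E12.5, and the TPM file holds no read counts from which to judge such values.

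Shares formed within a library do not depend on its scaling. Of the summed outer-arm heavy chain TPM, Dnah5 took 7.91, 6.85 and 6.94% at E12.5, 0.912, 0.622 and 0.891% at P0, 0.783, 1.55 and 0.946% at P14 and 1.02, 1.20 and 1.27% at A6m. All E12.5 libraries were above all later ones, a description only, since Dnah5 passed the filter only through the E12.5 libraries. The share of Dnah9 and the proportions between classes given below were compared by an exact permutation test of the spread between ages over 15400 arrangements. Its p was adjusted over 6 such quantities, and the smallest possible p is 6.49e-05. The share of Dnah11 was 38.3 ± 2.97% at E12.5, 47.8 ± 1.40% at P0 and 48.1 ± 4.40% at A6m, also a description only. The sum it is taken from includes Dnah5 and Dnah8, which passed the filter only through the E12.5 libraries. Their mean shares went from 7.23% and 2.77% at E12.5 to 0.809% and 0.705% at P0. The share of Dnah9 was 49.6 ± 1.23% at E12.5 and 48.01 ± 4.66% at A6m, with no difference between ages that passed the test (exact adjusted p = 0.823).

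**Figure D2:**
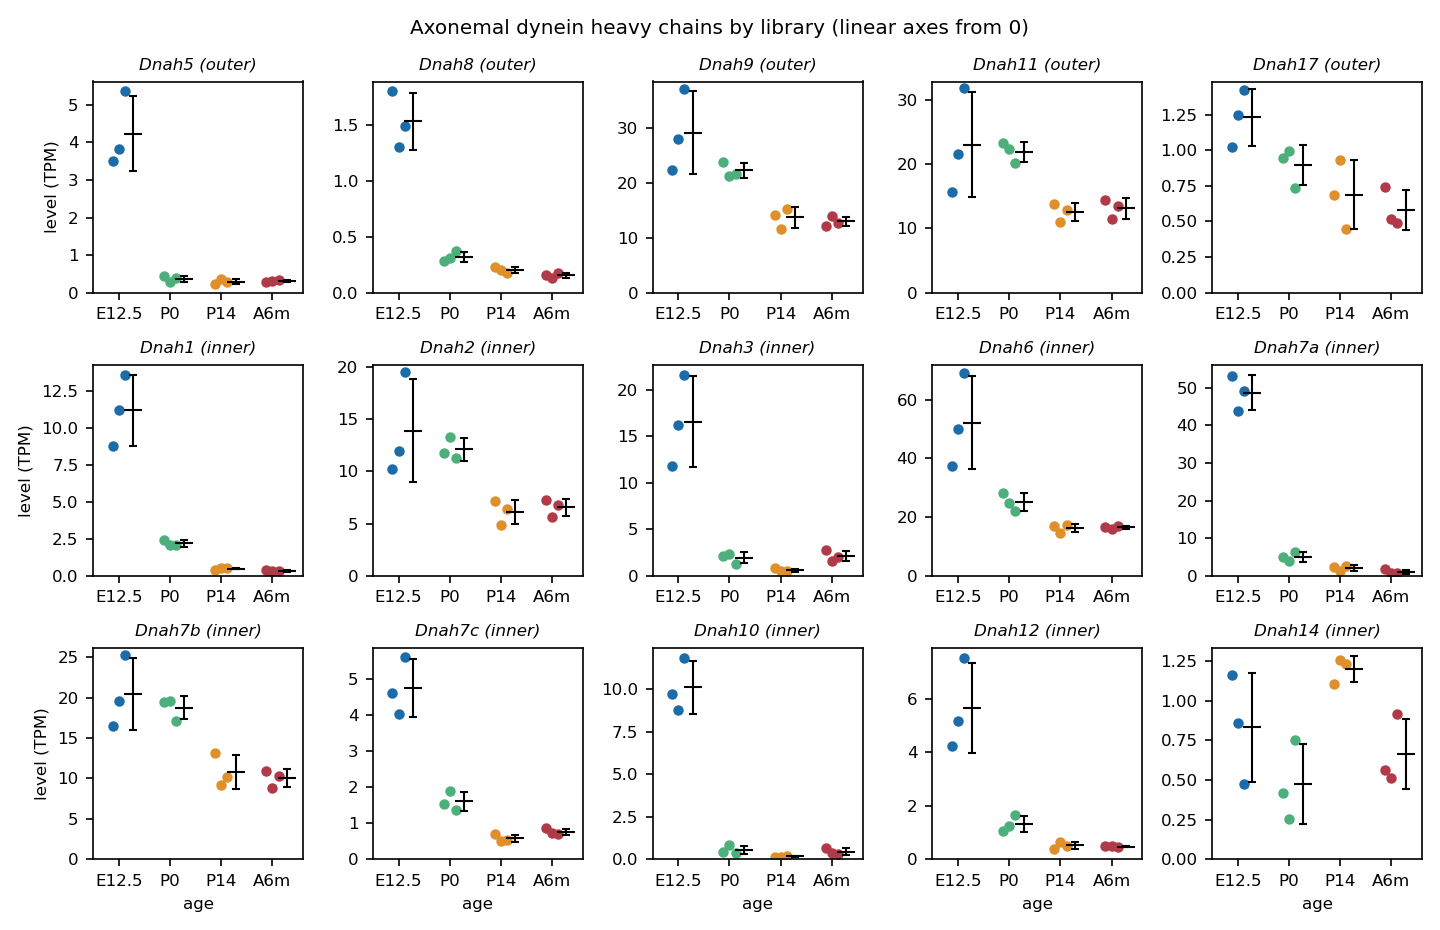
Levels of the 15 axonemal heavy chains. Each panel plots TPM (linear axis from 0) against age; dots are libraries, the bar beside them is the mean with its SD (n = 3). Dnah3, Dnah7a and Dnah10 drop to under 7 TPM at P0, while Dnah11, Dnah2 and Dnah7b have P0 libraries within the E12.5 range.

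Of the 10 inner-arm heavy chains, 7 were lower at P0 than at E12.5 (43.7% of all genes were) and 9 at A6m than at E12.5 (62%). On rescaled values 7 (31%) and 7 (35.8%) were, and Dnah10, described below, is in each of these counts. Dnah6, the most abundant of them after birth, was at 37.5, 49.9 and 69.1 TPM at E12.5, 28.3, 24.8 and 22.1 at P0, 16.9, 14.6 and 17.2 at P14 and 16.7, 15.8 and 16.9 at A6m. All later libraries lay below all E12.5 libraries, and P14 and A6m overlapped. Its fall into P0 was -0.99 ± 0.18 (SE) (limma adjusted p = 5.61e-04) and was called on both scales, while the step to P14 (-0.59, adjusted p = 0.0149) became -0.10 on rescaling and also lost its call without P0 replicate 1 or P14 replicate 2 (limma adjusted p = 0.0559 and 0.0551).

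Dnah7a, a single-headed inner-arm chain, was at 53.2, 43.8 and 49.3 TPM at E12.5, 4.90, 3.90 and 6.45 at P0, 2.31, 1.29 and 2.73 at P14 and 1.70, 0.771 and 0.719 at A6m. Every E12.5 library was above 40 TPM and every later one below 7. Dnah7a thus fell by 3.05 ± 0.23 (SE) on the log2 scale into P0 (limma adjusted p = 8.86e-07), and its E12.5 mean was 45.9-fold its A6m mean. Dnah7b was at 16.5, 19.6 and 25.3 TPM at E12.5, 19.5, 19.6 and 17.1 at P0, 13.2, 9.15 and 10.1 at P14 and 10.9, 8.78 and 10.3 at A6m. Its P0 libraries lay within the E12.5 range and its P14 and A6m libraries below it. The E12.5 to P0 difference of Dnah7b was -0.10 ± 0.16 (SE) (limma adjusted p = 0.595), and its fall into P14 (-0.75, adjusted p = 0.00234) was not called after rescaling (-0.27, adjusted p = 0.0689). Dnah7c had the lowest mean of the copies at every age, with 4.75 ± 0.799 TPM at E12.5 and 0.761 ± 0.0838 at A6m (-1.70, limma adjusted p = 3.62e-07).

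Reads from shared stretches can be assigned to any copy, so the sum of the copies is given as well. Summed over Dnah7a, Dnah7b and Dnah7c the level was 74.4, 67.4 and 80.2 TPM at E12.5, 25.96, 25.4 and 24.95 at P0, 16.1, 10.9 and 13.4 at P14 and 13.5, 10.3 and 11.7 at A6m. The P0 libraries lay below those of E12.5 and the P14 libraries below those of P0, and P14 and A6m overlapped. Dnah7a made up 71.5, 64.9 and 61.4% of the sum at E12.5, 18.9, 15.4 and 25.8% at P0, 14.3, 11.8 and 20.4% at P14 and 12.6, 7.50 and 6.12% at A6m. Dnah7b made up 22.2% to 31.6% at E12.5 and 81.1% to 87.9% at A6m, and Dnah7c 5.96% to 6.99% and 5.98% to 7.06%. The leading copy thus changed from Dnah7a in all 3 E12.5 libraries to Dnah7b in all 9 later ones. The division of reads between the copies was not tested.

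Dnah1 went from 11.2 ± 2.41 TPM at E12.5 to 2.19 ± 0.223 at P0, 0.481 ± 0.0486 at P14 and 0.344 ± 0.0684 at A6m, 32.5-fold overall (-3.16, limma adjusted p = 5.03e-09). Dnah10, a chain of the double-headed inner arm, went from 10.1 ± 1.57 to 0.550 ± 0.247 TPM by P0 and 0.444 ± 0.193 at A6m. It too passed the filter only through the E12.5 libraries, and no test against E12.5 is given for it. Dnah2, its partner in that arm, went from 13.9 ± 4.92 over 12.1 ± 1.06 and 6.15 ± 1.16 to 6.57 ± 0.832 TPM (-0.93, limma adjusted p = 0.00146; -0.16 rescaled, adjusted p = 0.355). Dnah12 went from 5.66 ± 1.70 to 0.467 ± 0.0284 TPM (-2.15, limma adjusted p = 5.69e-07). The fold from E12.5 to A6m ranged from 1.25 for Dnah14 to 45.9 for Dnah7a, with a median of 7.01 over the 10, and over the 5 outer-arm chains from 1.76 to 13.4 with a median of 2.25. Across the 15 heavy chains the log2 difference from E12.5 to A6m had a Spearman rho of 0.468 with the number of annotated transcripts per gene and 0.508 with the number of noncoding ones. Over all 37 genes these values were 0.131 and 0.037. These correlations are descriptions over genes that share libraries. The genes include Dnah5, Dnah8, Dnah17 and Dnah10, which passed the filter only through the E12.5 libraries, and no value without them was computed.

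Dnah3 and Dnah14 were the inner-arm chains called higher in a comparison. Dnah3, an inner-arm chain, was at 11.8, 16.2 and 21.6 TPM at E12.5, 2.19, 2.36 and 1.31 at P0, 0.816, 0.508 and 0.515 at P14 and 2.73, 1.61 and 2.04 at A6m. All A6m libraries lay above all P14 libraries and overlapped P0, and all were below E12.5. It fell by 2.55 into P0 (limma adjusted p = 2.66e-06) and rose from P14 to A6m by 0.95 ± 0.22 (SE) (adjusted p = 0.0119), a call lost without A6m replicate 1 (0.81, limma adjusted p = 0.0516) and with a pseudocount of 5 (0.34, limma adjusted p = 0.124). Dnah14, one of the least studied heavy chains and grouped here with the inner arm, was at 1.17, 0.860 and 0.474 TPM at E12.5, 0.416, 0.253 and 0.753 at P0, 1.11, 1.26 and 1.23 at P14 and 0.564, 0.511 and 0.917 at A6m. The P14 libraries and E12.5 replicate 1 were the highest, and P14 and P0 did not overlap. Its difference from P0 to P14 was 0.59 on the log2 scale and 0.48 without P0 replicate 2, which lost the call. Dnah14 reached 1 TPM only in the P14 libraries and E12.5 replicate 1. It thus passed the filter through the age where it was high, and its difference is a description with no test given.

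**Figure D3:**
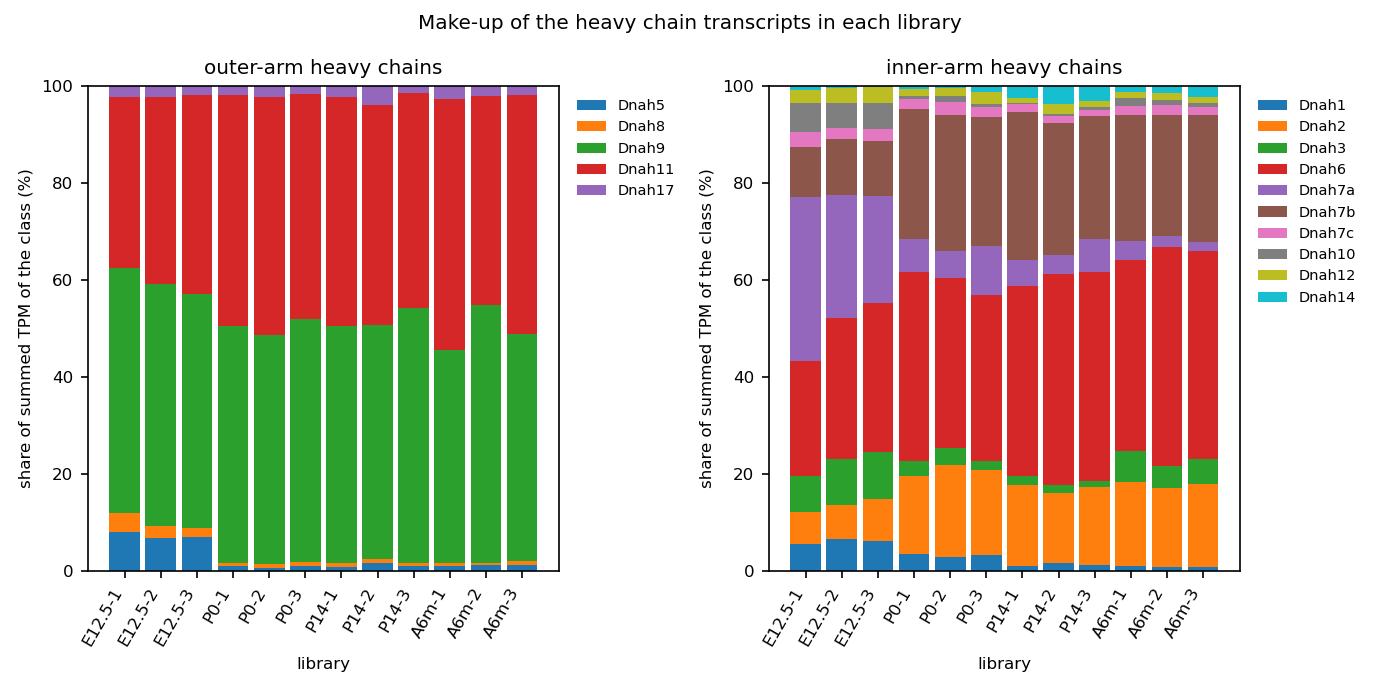
Make-up of the summed heavy chain TPM in each library (x axis: age and replicate; y axis: percent of the class sum; colours: genes), outer-arm chains left and inner-arm chains right. The Dnah5 band shrinks from 6.85% to 7.91% at E12.5 to 0.622% to 1.55%, and the Dnah7a band shrinks while those of Dnah7b, Dnah6 and Dnah2 widen.

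Intermediate and light chains were lower after E12.5 and in part higher again at A6m. Of the 7 genes, 5 were lower at P0 than at E12.5 (43.7% of all genes) and 4 higher at A6m than at P14 (8.78%). After rescaling 4 were lower at P0 (31%) and 5 higher at A6m (15.2%), those 4 and Wdr63. Dnaic1 and Dnaic2 encode the intermediate chains at the base of the outer arm. Dnaic1 was at 20.8, 27.1 and 33.2 TPM at E12.5, 7.08, 5.35 and 6.38 at P0, 7.62, 6.94 and 7.67 at P14 and 12.8, 12.4 and 14.1 at A6m. P0 and P14 were low and overlapped, and all A6m libraries lay above them and below E12.5. It fell into P0 by 1.93 ± 0.15 (SE, limma adjusted p = 1.09e-06) and rose from P14 to A6m by 0.74 ± 0.15 (SE) (adjusted p = 0.00506). Dnaic2 was at 43.1, 45.7 and 60.98 TPM at E12.5, 12.2, 12.6 and 11.4 at P0, 12.1, 10.9 and 12.01 at P14 and 15.2, 14.7 and 17.6 at A6m. Again P0 and P14 overlapped and the A6m libraries lay above both. Its rise, 0.41 ± 0.12 (SE) (limma adjusted p = 0.0376), lost its call without any one of the 9 libraries of P0, P14 or A6m (limma adjusted p 0.0502 to 0.139).

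Dnal1 encodes a light chain bound to the motor domain of the outer arm. It was at 27.4, 40.9 and 46.3 TPM at E12.5, 28.1, 26.2 and 26.5 at P0, 20.8, 20.5 and 19.9 at P14 and 33.8, 32.3 and 38.1 at A6m. The P14 libraries were the lowest, and those of A6m lay within the E12.5 range. Dnal1 rose by 0.74 ± 0.15 (SE) from P14 to A6m (limma adjusted p = 0.00586); over the whole span its difference was -0.10 as deposited (adjusted p = 0.550) and 0.73 after rescaling (adjusted p = 4.27e-05), and it was called lower without E12.5 replicate 1 (-0.32, limma adjusted p = 0.00455). Dnali1, a light intermediate chain of inner arms, was at 27.3, 39.99 and 38.2 TPM at E12.5, 18.4, 18.6 and 17.6 at P0, 10.2, 10.1 and 10.3 at P14 and 18.5, 17.7 and 20.2 at A6m. The P14 libraries lay below all others and those of A6m overlapped P0. Dnali1 rose from P14 to A6m by 0.82 ± 0.12 (SE) (limma adjusted p = 7.93e-04), with mean levels 1.85-fold those at P14.

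Wdr63 and Wdr78, intermediate chains of the double-headed inner arm, were the most abundant of the class. Wdr63 was at 70.6, 84.7 and 105 TPM at E12.5, 40.2, 30.5 and 29.8 at P0, 16.7, 19.8 and 22.9 at P14 and 26.6, 22.8 and 29.3 at A6m. The E12.5 libraries were highest, P0 next, and the P14 and A6m ranges overlapped. Its difference from E12.5 to A6m was -1.68 ± 0.17 (SE) (limma adjusted p = 3.45e-06) and was called on both scales, and that from P14 to A6m was 0.39 (adjusted p = 0.141; 0.44 rescaled, adjusted p = 0.0410). Wdr78 was at 77.6, 107 and 153 TPM at E12.5, 89.7, 94.7 and 82.4 at P0, 62.8, 63.9 and 65.6 at P14 and 63.4, 56.6 and 61.5 at A6m. E12.5 replicate 1 lay below all P0 libraries, while the P14 and A6m libraries were below all earlier ones. Its difference of -0.83 ± 0.18 (SE) (limma adjusted p = 0.00154) became 0.01 after rescaling (adjusted p = 0.925). Dnal4, a small light chain, went from 30.7 ± 3.35 to 16.7 ± 3.10 TPM (-0.85, limma adjusted p = 6.24e-05; -0.04 rescaled).

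Among the docking and attachment genes, Ccdc40 had the largest fold change. Ccdc39 and Ccdc40 form the ruler that sets the spacing of inner arms and radial spokes along the doublet. Ccdc39 was at 156, 199.7 and 256 TPM at E12.5, 120.1, 121 and 108 at P0, 96.97, 80.9 and 96.4 at P14 and 86.9, 78.2 and 78.7 at A6m. The E12.5 libraries were above all others, and P14 and A6m overlapped. Ccdc40 was at 74.2, 109 and 112 TPM at E12.5, 34.8, 31.9 and 35.5 at P0, 4.97, 5.81 and 5.35 at P14 and 1.70, 2.36 and 2.82 at A6m. The 4 ages did not overlap, and each was lower than the one before. Ccdc40 fell by 1.48 into P0, 2.46 into P14 and 0.97 into A6m (limma adjusted p = 1.56e-05, 1.88e-06 and 0.00182), called on both scales, while Ccdc39 fell by 0.77 into P0 (adjusted p = 8.88e-04) and its later steps of -0.35 and -0.16 were not called. The mean level at E12.5 was 42.9-fold that at A6m for Ccdc40 and 2.51-fold for Ccdc39; the difference between the genes was not tested. Of the 31-base words in Ccdc39 transcripts 15.4% also occur in Ttc14, and 0 of those in Ccdc40 occur in other genes.

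Ccdc114, a coiled-coil protein of the docking complex, was at 59.4, 66.3 and 93.8 TPM at E12.5, 67.1, 72.9 and 59.6 at P0, 33.3, 28.1 and 39.2 at P14 and 34.98, 28.1 and 36.1 at A6m. P0 lay within the E12.5 range, and the P14 and A6m libraries overlapped well below it. It fell at the step into P14 (-0.98 ± 0.17 (SE), limma adjusted p = 8.06e-04, called on both scales), against -0.11 into P0 (adjusted p = 0.594). Ccdc151 went from 40.3 ± 5.58 over 17.4 ± 0.604 and 9.87 ± 1.10 to 7.21 ± 0.637 TPM and, like Ccdc40, was lower at every step, with -0.40 at the last (limma adjusted p = 0.0265). Armc4 and Ttc25, further docking proteins, went from 19.3 ± 3.76 to 4.39 ± 0.545 and from 36.7 ± 7.64 to 13.9 ± 0.949 TPM (-1.90 and -1.32, limma adjusted p = 2.31e-07 and 1.53e-06). Ccdc103, an attachment factor, went from 16.6 ± 4.07 to 8.75 ± 1.16 TPM (-0.83, limma adjusted p = 3.31e-04; -0.05 rescaled, adjusted p = 0.768).

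All 7 assembly factors were lower at P0 than at E12.5, on both scales (background 43.7% as deposited and 31% rescaled). Zmynd10, a zinc-finger protein needed for heavy chain stability before transport, was the most abundant. It was at 74.3, 71.3 and 94.7 TPM at E12.5, 23.6, 21.8 and 19.1 at P0, 10.1, 10.04 and 11.7 at P14 and 14.9, 12.7 and 14.8 at A6m. The ages did not overlap, and A6m lay between P14 and P0. It fell by 1.84 ± 0.12 (SE, limma adjusted p = 3.39e-07) into P0 and by 0.95 into P14 (adjusted p = 1.01e-04), and rose by 0.38 ± 0.12 (SE) into A6m (adjusted p = 0.0479), a call lost without any of 7 of the 12 libraries taken singly (adjusted p 0.0517 to 0.143). Dnaaf3 was at 22.5, 22.1 and 29.7 TPM at E12.5, 16.3, 17.4 and 15.3 at P0, 9.64, 8.53 and 10.7 at P14 and 13.1, 9.74 and 12.4 at A6m. P0 lay below all E12.5 libraries, and P14 and A6m overlapped below P0. Its difference from E12.5 to A6m was -1.01 ± 0.14 (SE) (limma adjusted p = 3.96e-05; -0.21 rescaled, adjusted p = 0.0985). The folds from E12.5 to A6m over the 7 ran from 2.11 for Dnaaf3 to 7.67 for Dnaaf1, a leucine-rich repeat protein, with a median of 3.76. Dnaaf1 went from 10.2 ± 0.512 to 1.33 ± 0.229 TPM, Dnaaf2 from 11.3 ± 2.20 to 2.12 ± 0.259, Dnaaf5 from 23.9 ± 2.45 to 10.5 ± 1.38, Lrrc6 from 15.9 ± 3.43 to 4.51 ± 0.803 and Spag1, a co-chaperone scaffold, from 22.3 ± 2.49 to 5.93 ± 0.302. Of the 31-base words in Dnaaf2 71.1% also occur in other genes, 31.2% of all in 9330151L19Rik, so its level is uncertain.

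E12.5 also stood apart in the proportions between the classes. Outer-arm chains made up 21.9, 24.6 and 25.7% of axonemal heavy chain TPM at E12.5, 40.2, 39.2 and 40.2% at P0, 40.3, 41.9 and 42.1% at P14 and 39.7, 42.9 and 40.8% at A6m. The E12.5 libraries were below all others, which overlapped one another (exact permutation test, adjusted p = 0.00857). The log2 ratio of assembly factors to arm subunits (heavy, intermediate and light chains) was -1.54, -1.77 and -1.82 at E12.5 and -2.21 on average at P0, -2.38 at P14 and -2.33 at A6m. The summed assembly factors were thus higher relative to the subunits in every E12.5 library than in any later one (exact adjusted p = 9.74e-04). Zmynd10 gave 80.1 of the mean assembly factor sum of 188 TPM at E12.5 and 14.1 of 50.3 at A6m. The ratio without Zmynd10 was not tested. The log2 ratio of axonemal heavy chains to the heavy chains of cytoplasmic dynein, Dync1h1 and Dync2h1, was 1.68, 1.47 and 1.70 at E12.5 and averaged 0.89, 0.59 and 0.71 at the later ages. Here too E12.5 did not overlap the rest (exact adjusted p = 9.74e-04), the axonemal chains being lower relative to the cytoplasmic ones at every later age.

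**Figure D4:**
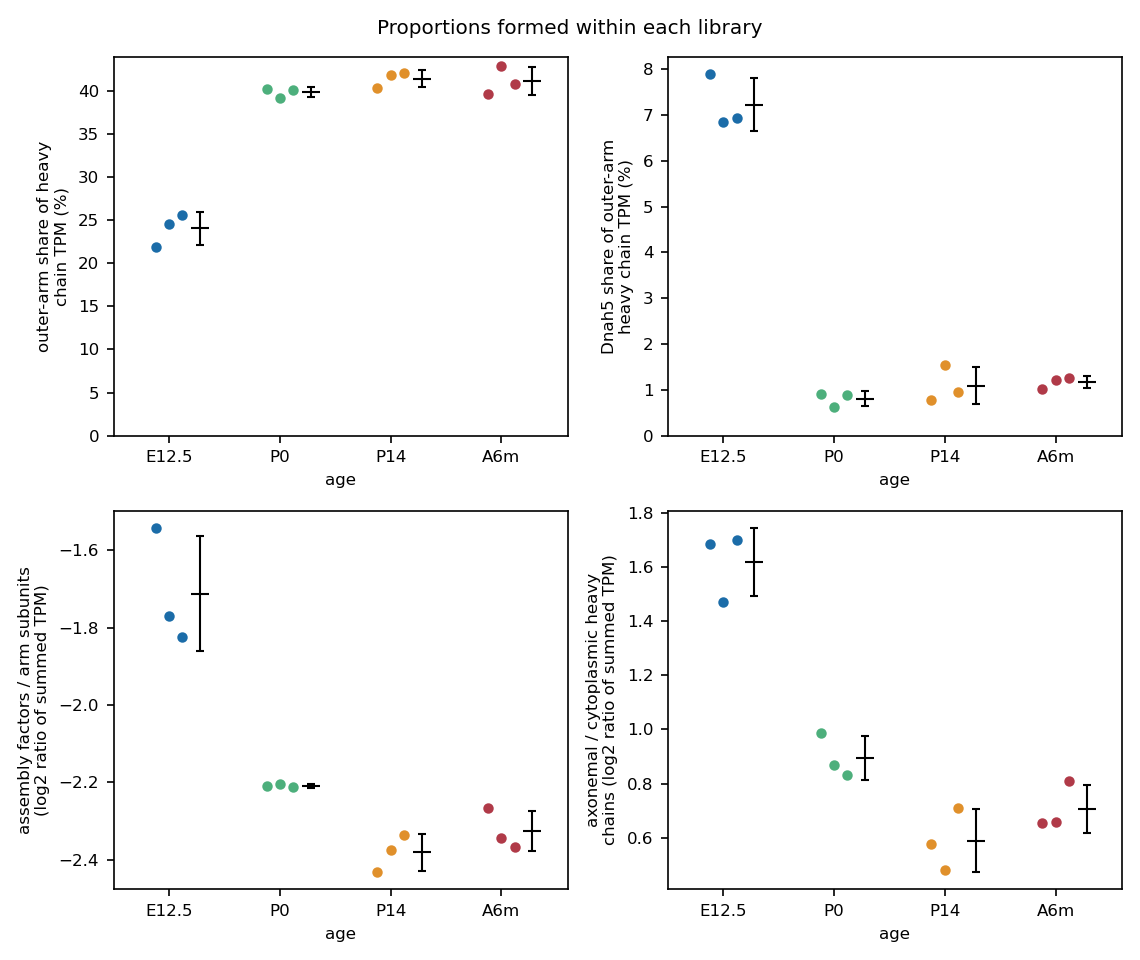
Quantities formed within each library against age: outer-arm share of heavy chain TPM and Dnah5 share of outer-arm TPM (percent, axes from 0), and log2 ratios of assembly factors to arm subunits and of axonemal to cytoplasmic heavy chains (axes not from 0). Dots are libraries and bars the mean with its SD (n = 3); in all 4 panels the E12.5 libraries stand apart from the rest.

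Between P14 and A6m most of the genes were not called, and those that were went in both directions. Higher on both scales were Dnah3, Dnaic1, Dnaic2, Dnal1, Dnali1 and Zmynd10, with ratios of mean TPM of 3.47, 1.77, 1.36, 1.70, 1.85 and 1.33. Lower were Ccdc40 and Ccdc151, and 29 genes were not called. Without A6m replicate 1, or with a pseudocount of 5, 3 higher calls were left in each case, those of Dnaic1, Dnal1 and Dnali1. Rescaled values added Wdr63, Dnaaf3 and Spag1 (9 of 37, background 15.2%). By class, the median log2 difference was 0.41 for intermediate and light chains, 0.22 for assembly factors, -0.02 for docking genes, -0.01 for inner-arm and -0.06 for outer-arm heavy chains, against -0.04 for all genes. Over the same step the summed level of 4 endothelial markers was 42.5 to 56.8 TPM at P14 and 14.2 to 18.9 at A6m, and that of 4 mesenchymal markers 199.7 to 237 and 146 to 213; their part in these differences was not tested.

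**Figure D5:**
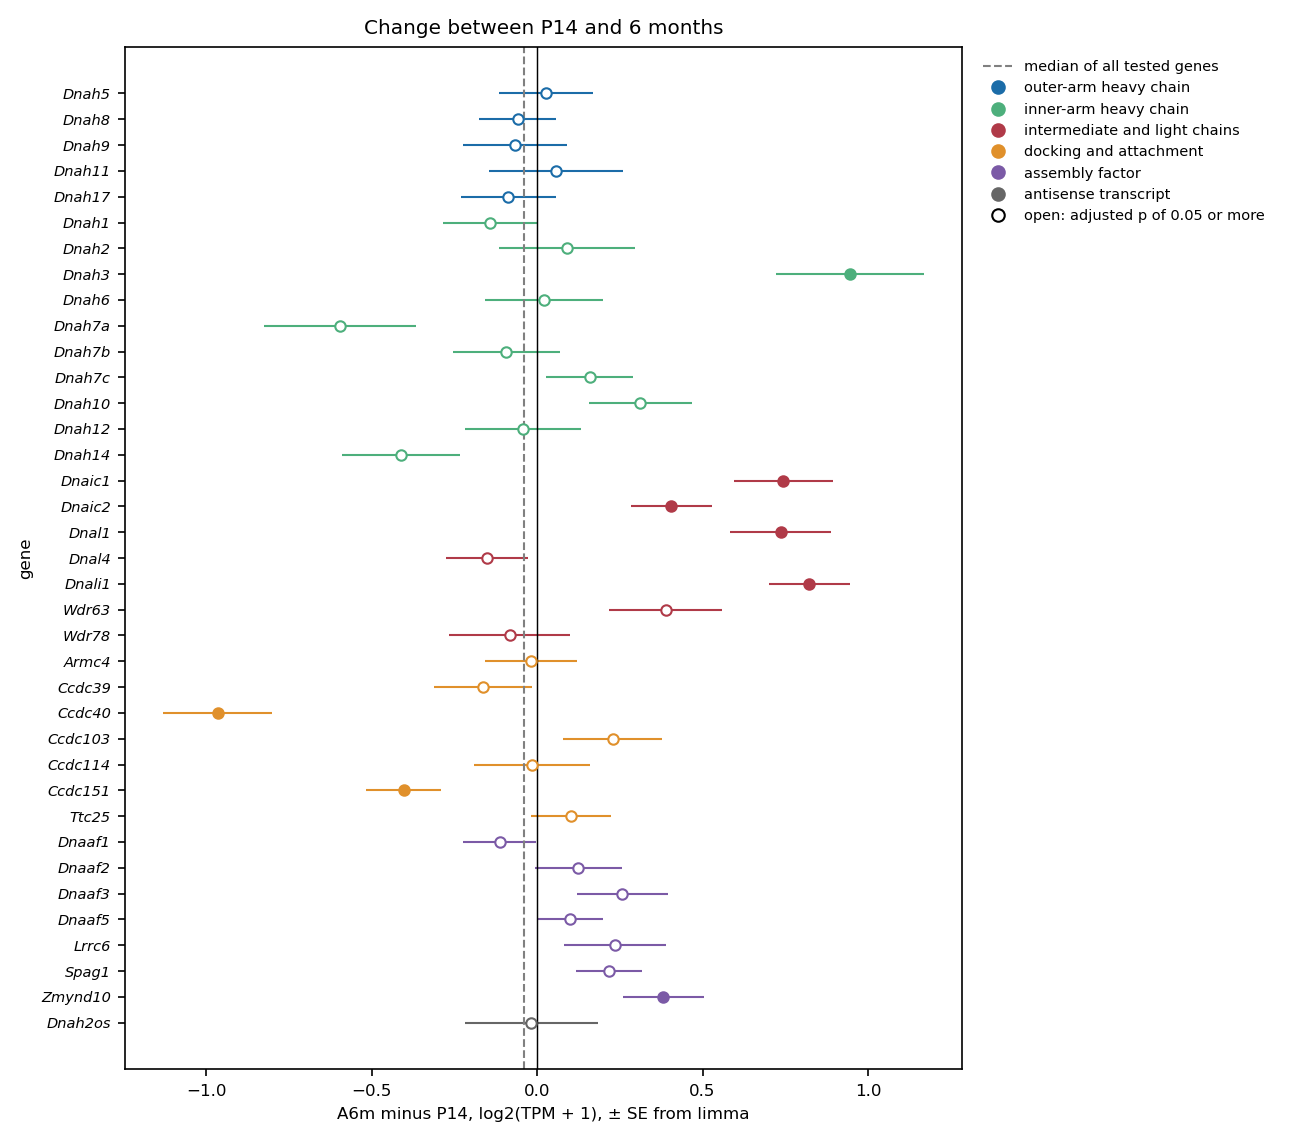
Difference between A6m and P14 for each gene (rows, coloured by role): log2(TPM + 1) at A6m minus P14 on the x axis, with the limma SE as bar; filled symbols passed the adjusted p threshold of 0.05. The dashed line is the median of all tested genes (-0.04). The 4 filled intermediate and light chain symbols lie between 0.41 and 0.82, and the outer-arm heavy chains lie between -0.09 and 0.06.

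Dnah2os, a noncoding transcript annotated on the strand opposite Dnah2 (chr11:69448548-69453676), was the gene called higher at P0 than at E12.5. It was at 0.953, 0.683 and 1.25 TPM at E12.5, 4.14, 3.67 and 4.46 at P0, 1.80, 1.65 and 2.34 at P14 and 1.21, 1.77 and 2.91 at A6m. The P0 libraries were above all others, and the E12.5 libraries were below all P14 libraries but not below all of A6m. It rose by 1.38 ± 0.20 (SE) into P0 (limma adjusted p = 1.21e-04) and fell by 0.80 into P14 (adjusted p = 0.00576; -0.43 rescaled, adjusted p = 0.122). Its A6m level exceeded that at E12.5 by 0.57 ± 0.20 (SE) (limma adjusted p = 0.0233), a call lost without A6m replicate 3 (0.34, limma adjusted p = 0.102) or E12.5 replicate 2 (0.46, limma adjusted p = 0.0850). Of its 31-base words 26.9% occur in Dnah2 transcripts, and whether strand was used in the quantification is not stated in the sources used here, so reads of the overlapping part cannot be told apart from those of Dnah2.

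Foxj1 itself was at 257, 262 and 300.01 TPM at E12.5, 96.5, 109 and 106 at P0, 63.1, 61.1 and 67.2 at P14 and 59.7, 61.03 and 59.5 at A6m. The ages from E12.5 to P14 did not overlap, and A6m lay below P14. It fell by 1.39 ± 0.07 (SE) into P0 (limma adjusted p = 7.06e-08) and by 0.69 into P14 (adjusted p = 2.93e-05; -0.18 rescaled, adjusted p = 0.0615), and its step into A6m was -0.08 (adjusted p = 0.480). Of the 16 tested regulators of the multiciliated fate, Foxj1 included, 15 were lower and 1 higher at P0 against E12.5 (background 43.7% and 18.6%), and at A6m against P14 8 were lower and 0 higher (12.1% and 8.78%). After rescaling 14 were lower and 1 higher in the first comparison (background 31% and 29%) and 8 were lower and 1 higher in the second (14% and 15.2%). Mcidas, a regulator on this list, was at 39.9, 32.3 and 38.8 TPM at E12.5 and 0.0606, 0 and 0.0953 at A6m. Gmnc, also on it, fell less, from 112 to 154 TPM at E12.5 to 36.5 to 38.0 at A6m.

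Other axonemal gene groups were mostly lower at A6m than at E12.5 as deposited, where 62% of all genes were lower and 15.2% higher, against 35.8% and 35.4% rescaled. From E12.5 to A6m, 9 were lower and 1 higher among 10 genes of the nexin-dynein regulatory complex, which links neighbouring doublets, on both scales. The exception, Drc7, rose at each step, with means of 58.3, 75.9, 113 and 212 TPM (limma adjusted p = 0.0390, 0.00696 and 0.00162, called on both scales). Of the 15 tested radial spoke genes 14 were lower and 0 higher as deposited, and 8 were lower and 2 higher rescaled. At A6m against P14, 4 of them (Rsph1, Rsph4a, Rsph9 and Maats1) were higher and 1 lower (background 8.78% and 12.1%). Of the 11 tested central pair genes 9 were lower and 0 higher as deposited, and 8 were lower and 3 higher rescaled. From P14 to A6m 2 were lower and 0 higher as deposited (background 12.1% and 8.78%), and 2 were lower and 1 higher rescaled (14% and 15.2%). The 9 tested co-chaperones of arm assembly outside the symbol rule were all lower at P0 than at E12.5 on both scales (background 43.7% and 31%), and Pih1d3 was listed at 0 in every library. Dyx1c1, the older symbol of an assembly factor now numbered Dnaaf4, was not matched by the rule and went from 25.1 ± 2.01 to 6.68 ± 0.439 TPM at P14 and 8.27 ± 0.321 at A6m.

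Of 8 tested further arm subunits and attachment genes, 7 were lower and 1 higher at A6m against E12.5 as deposited (62% and 15.2% of all genes). On rescaled values 5 were lower and 3 higher (35.8% and 35.4%). Dynll2, a light chain that cytoplasmic dynein also carries, was the one higher as deposited (41.5 to 79.1 TPM, limma adjusted p = 7.05e-06). Efcab1, which encodes the calcium sensor of the outer arm, was at 83.1 to 104 TPM at E12.5 and 71.6 to 79.2 at A6m (-0.26, limma adjusted p = 0.0289; 0.59 rescaled, a change of sign). Of the 9 cytoplasmic dynein genes 8 were lower and 1 higher as deposited (62% and 15.2% of all genes). On rescaling 2 were lower and 1 higher, both under the shares of all genes (35.8% and 35.4%). The higher one was Dync1i1, an intermediate chain (5.92 to 19.8 TPM, limma adjusted p = 1.30e-05).

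Marker levels of other cell types differed between the ages as well. Of 8 ependymal markers outside the lists above, 5 (Ccdc153, Tmem212, Rarres2, Mia and S100b) were higher and 3 (Vim, Nnat and Cd24a) lower at A6m than at E12.5. Of all genes 15.2% were higher and 62% lower as deposited. The median log2 difference of these 8 markers was 1.20 as deposited and 1.84 rescaled. Their sum was 1161 to 1670 TPM at E12.5, 788 to 824 at P0, 402 to 447 at P14 and 138 to 167 at A6m, and was led at E12.5 by Vim, with a mean of 999 TPM there and 37.4 at A6m. The summed level of 8 neural progenitor and neuron markers was 196 to 412 TPM at E12.5 and 30.4 to 33.1 at A6m, with Hes5 listed at 0 in some later libraries. At E12.5 the sums were 213 to 251 for 4 endothelial, 92.6 to 119 for 4 macrophage, 525 to 747 for 4 mesenchymal and 27539 to 35357 for 4 erythroid markers, and at A6m 14.2 to 18.9, 11.5 to 19.3, 146 to 213 and 83.8 to 312. Of the 4 mesenchymal markers 3 were lower at A6m than at E12.5 (62% of all genes were as deposited). Dcn was higher (15.2% were), with means of 43.9 TPM at E12.5 and 114 at A6m. The part of these cell types in the falls of the dynein genes was not tested.

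Promoters were read for shared motifs because most of the genes were lower at P0 than at E12.5 while Dnah7b was not called. The 250 bases before the RefSeq start (GRCm38.p6) were found for 29 of the 37 genes and searched on both strands for the RFX half-site GTTGCC, the RFX palindrome (GTTNCC and GNAAC with any 3 bases between them) and the forkhead motif GTAAACA. The half-site occurred in 6 of 29 (20.7%) against 10.4% of 32851 promoters, in Dnah7a, Dnah7b, Dnah7c, Dnah10, Dnaic2 and Dnaaf2. Of these 6 genes, 3 are the Dnah7 copies, so their matches need not be separate occurrences. Dnah7b is counted here although its window lies inside the GENCODE gene. The palindrome occurred in Ccdc151 and Dnaaf2 (6.90% against 0.667%), where in Dnaaf2 it lies on the other strand and holds the half-site, and the forkhead motif in Dnah17 (3.45% against 3.17%). The lines below show the windows of Dnah7a and Dnah7c, copies whose levels differed, and of the genes with the palindrome, 5′ to 3′ on the gene's strand with the match in capitals. That of Dnah7b is not shown, because its RefSeq start lies inside the GENCODE gene.
Dnah7a (chr1:53706942-53707021, minus strand): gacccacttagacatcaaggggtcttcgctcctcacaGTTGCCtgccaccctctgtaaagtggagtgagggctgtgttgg
Dnah7c (chr1:46425268-46425347, plus strand): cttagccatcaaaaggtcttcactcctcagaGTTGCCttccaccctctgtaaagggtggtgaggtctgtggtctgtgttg
Ccdc151 (chr9:22002635-22002714, minus strand): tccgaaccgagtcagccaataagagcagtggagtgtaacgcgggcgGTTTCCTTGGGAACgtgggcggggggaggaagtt
Dnaaf2 (chr12:69198430-69198509, minus strand): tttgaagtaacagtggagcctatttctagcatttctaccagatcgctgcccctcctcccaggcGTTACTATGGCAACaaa
All 3 Dnah7 copies hold the half-site in the RefSeq window, and their mean levels at E12.5 were 45.9-fold, 2.05-fold and 6.24-fold those at A6m. A match is a description of the letters and not a bound site.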

How the data were processed

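Choroid plexus of B6 mice was profiled by RNA-seq in 12 libraries, 3 at each of 4 ages, and 7 further columns of the table were not used. The authors deposited TPM values, transcript abundances scaled to a fixed total in each library, per gene symbol. The submitters' processing notes name kallisto and GRCm38 with no version; strand, filters and annotation release are not given in the sources used here. Read totals are not in the TPM table, so depth is unknown and no counting interval is given.

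Values were tested as log2(TPM + 1) with limma 3.58.1 in R 4.3.3 (trended empirical Bayes, group means for 4 ages, 8 residual degrees of freedom) over the 17422 of 52459 symbols with at least 1 TPM in at least 3 libraries, with Benjamini-Hochberg adjustment and a threshold of 0.05. The procedure was tested on simulated data. Median-of-ratios factors from 19075 genes gave the rescaled values. Shares and ratios within a library were compared by an exact permutation test of the sum of squares between ages, which has no direction. Coding sequences were aligned with MAFFT 7.526. Values in every library are given, in each class, for the 2 genes with the highest mean and the 1 whose change from E12.5 to A6m lay farthest from the class median, for every gene called higher in any comparison, and for Foxj1. The members and gene lists were chosen with earlier results of these data known. Alternatives covered scaling, pseudocount, filter, a replicate block and leaving out each library.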

Additional observations from a re-analysis of the deposited data

How the results depend on the processing

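Over all results and settings, 1919 outcomes were unchanged, 100 lost the call, 14 gained one, 40 counts or medians moved and 13 changed sign. The counts and medians over the whole gene set depended on the scale. With median-of-ratios scaling 7 of them moved and 6 were unchanged, and with quantile normalization 6 moved and 7 were unchanged. Without the 10 most abundant genes 5 moved and 8 were unchanged. For a called gene, unchanged means the same sign and still called. An uncalled gene that stayed uncalled was taken as unchanged whatever its sign, so such sign changes are not among the 13. Counts and medians were taken as unchanged within a set margin. The cause of each change was not tested. The median difference at P0 against E12.5 (-0.99) was -0.71 with median-of-ratios scaling, -0.78 with quantile normalization, -0.81 without the 10 most abundant genes, -1.14 and -0.75 with pseudocounts of 0.1 and 5, and -1.15 to -0.83 leaving out 1 library. At P14 against P0 (-0.71) it was -0.27, -0.24 and -0.53 with those scalings and -0.40 with a pseudocount of 5. At A6m against E12.5 (-1.32) it was -0.74, -0.75 and -1.11 with those scalings, -1.61 and -0.95 with the pseudocounts, and -1.47 to -1.16 leaving out 1 library. Lower calls at P14 against P0 were 12 with scaling and 7 with quantile normalization instead of 30, and at A6m against E12.5 22 with scaling instead of 34. Higher calls at P14 against P0 were 3, 3 and 2 with the scalings and 0 to 1 leaving out 1 library (0 without P0 replicate 2). At A6m against E12.5 they were 2, 3 and 2 with the scalings, 0 with no filter or only the 6 libraries compared, and 0 to 1 leaving out 1 library (0 without A6m replicate 3 or E12.5 replicate 2). A filter at a mean of 5 TPM removes Dnah2os and Dnah14, which left 0 higher calls in each comparison but A6m against P14. At A6m against P14 a pseudocount of 5 left 3 higher and 1 lower, and leaving out 1 library 3 to 6 higher (3 without A6m replicate 1) and 1 to 3 lower (1 without A6m replicate 2 or P14 replicate 1). Without an E12.5 library 33 genes were tested. Dnal1 and Wdr78 at P14 against P0 each lost the call without any of 10 of the 12 libraries taken singly, and Dnal1 at P0 against E12.5 without any of 4.

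Sign changes are listed for named genes called in the main or the alternative fit. They were seen for Dnah11 from E12.5 to A6m (0.090 scaled, 0.013 quantile) and Wdr78 from P0 to P14 (0.044) and E12.5 to A6m (0.014) when scaled. Others were Dnah14 from E12.5 to A6m (0.59, quantile) and Dnaic2 from P0 to P14 (0.43 scaled, 0.42 quantile). Dnal1 changed sign from P0 to P14 (0.11 and 0.021) and E12.5 to A6m (0.73, 0.51 and, without the 10 most abundant genes, 0.37). The change in the Dnah9 share, not called, ranged from -4.12 to 0.451 percentage points leaving out 1 library (0.451 without A6m replicate 1). That of the Dnah11 share, a description only, ranged from 7.99 to 12.3 (8.29 without E12.5 replicate 1). Replicate numbers did not pair the samples (correlation of deviations for the same number -0.0778 to 0.1076). With the number as a replicate block, lower calls were 27, 27, 2 and 34 and higher calls 1, 1, 5 and 1, the F-test called 35, and of the named genes Zmynd10 at A6m against P14 and Wdr78 and Dnal1 at P14 against P0 lost their calls (limma adjusted p = 0.0609, 0.0575 and 0.0570). The TPM values give no read depth, so differences among genes under 1 TPM could not be set against counting error.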
